A study of Mus musculus with 29 samples.

Results

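The genes described here encode the enzymes and transporters that carry glucose through glycolysis, the pentose phosphate pathway and glycogen in mouse CD4+ T cells. They were taken as a fixed list of 35 genes, of which the 34 with at least 10 counts in at least 3 of the 29 libraries were kept, out of 14178 genes of 55414 that met the same rule. The hexokinase gene Hk3 did not meet it: it reached 10 counts in 2 libraries and 12 counts at most. Of the 34, the liver-type glycogen phosphorylase gene Pygl reached 10 counts in the fewest libraries, 17, all from 72 h.

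CD4+ T cells came from the spleen of mice of the Foxp3-RFP reporter strain C57BL/6-Foxp3tm1Flv/J, in which red fluorescent protein (RFP) marks cells that express Foxp3, the lineage factor of regulatory T cells. All cultures shared activation by antibodies to CD3 (1.25 ug/ml) and CD28 (2.5 ug/ml), 50 IU/ml interleukin 2, 10% FBS and RPMI medium with 0.5 mM glucose, so that every comparison was made at low glucose. The media held neither addition (plain medium), 10 mM lactic acid, 3 ng/ml TGF-beta (under which activated CD4+ cells can turn on Foxp3), or TGF-beta and lactic acid together, for 24 or 72 h. The sort gave RFP-negative cells (Tcon) for each medium and time, and, at 72 h with TGF-beta, also RFP-positive cells (Treg). Each of these 10 groups had 3 libraries, except Tcon of plain medium at 72 h, which had 2 (replicates 1 and 2). Replicate 1 was male and replicates 2 and 3 were female. The labels do not say whether replicates came from separate mice, so the p-values measure the spread between these libraries, which may in part be technical.

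In glycolysis, glucose enters through transporters, is trapped by hexokinase, committed by phosphofructokinase and split by aldolase, and the resulting trioses are oxidised to pyruvate. The pentose phosphate pathway branches off at glucose 6-phosphate and yields NADPH and ribose phosphate, and glycogen stores glucose that glycogen phosphorylase can release again. Activated T cells are known for high glucose uptake and glycolysis, also when oxygen is present.

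Gene counts per library ranged from 9754511 to 14315313, with a median of 12106958, and the 34 genes took 0.551% to 2.15% of them. Summed marker levels per library were 3286 to 4694 counts per 1000000 (CPM) for 11 CD4 T cell markers and at most 1.73 CPM for 10 myeloid markers, of which Cd14, S100a8, S100a9 and Clec9a had no count in any library. The 8 B cell markers summed to 84.5 to 300.6 CPM, and 7 CD8 and natural killer cell markers to 13.6 to 149 CPM. The B cell sum was nearly all Ighm, with group means of 95.15 to 277.2 CPM, where each of the other 7 genes had a group mean of at most 3.25 CPM. In the CD8 and natural killer cell sum, Eomes, which some activated CD4+ T cells also express, had group means of 10.44 to 124 CPM, and each of the other 6 genes at most 11.96 CPM. Foxp3 had a mean of 224 ± 75.5 CPM (SD, n = 3) in Treg and 23.4 ± 10.8 CPM (SD, n = 3) in Tcon of the TGF-beta medium at 72 h. Expression is given as CPM over library sizes scaled by the trimmed mean of M values. In RNA from sorted populations, fewer cells that express a gene and less RNA of it per cell cannot be told apart.

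The bases just upstream of the transcription start are shown for 7 genes on which the comparisons turn. Aldoc and Gys1 had large differences between the times, Pygl had almost no count at 24 h, Slc2a1, Hk2 and Pfkfb3 differed between the times in their change with TGF-beta, and G6pdx was lower with TGF-beta at 72 h. Each line gives the 250 bases before the start, 5′ to 3′ on the strand of the gene, from RefSeq on assembly GRCm38.p6, which is another build than that of the counts. Capitals mark the pentamers ACGTG and GCGTG, the core of the hypoxia response element, and on the other strand CACGT and CACGC.
Slc2a1, chr4:119108495-119108744, plus strand: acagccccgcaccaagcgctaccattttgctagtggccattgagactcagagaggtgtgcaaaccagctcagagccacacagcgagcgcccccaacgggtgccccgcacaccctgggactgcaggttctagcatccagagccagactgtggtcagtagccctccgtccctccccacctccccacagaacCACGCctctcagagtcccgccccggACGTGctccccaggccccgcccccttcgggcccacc
Hk2, chr6:82774455-82774704, minus strand: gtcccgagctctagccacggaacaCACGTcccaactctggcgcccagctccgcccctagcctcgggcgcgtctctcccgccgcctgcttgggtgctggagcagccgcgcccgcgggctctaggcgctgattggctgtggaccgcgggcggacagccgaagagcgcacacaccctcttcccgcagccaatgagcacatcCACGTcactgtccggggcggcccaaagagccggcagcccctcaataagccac
Pfkfb3, chr2:11553930-11554179, minus strand: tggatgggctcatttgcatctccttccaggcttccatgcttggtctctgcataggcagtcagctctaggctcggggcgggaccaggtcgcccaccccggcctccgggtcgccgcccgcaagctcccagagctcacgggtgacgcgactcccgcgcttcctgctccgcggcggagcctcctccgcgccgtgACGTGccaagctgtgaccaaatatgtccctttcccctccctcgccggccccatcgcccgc
Aldoc, chr11:78322823-78323072, plus strand: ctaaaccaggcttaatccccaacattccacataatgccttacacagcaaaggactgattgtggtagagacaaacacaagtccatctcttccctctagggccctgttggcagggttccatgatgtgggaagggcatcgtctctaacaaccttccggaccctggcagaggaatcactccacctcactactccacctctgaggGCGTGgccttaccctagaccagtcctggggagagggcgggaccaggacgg
Gys1, chr7:45434589-45434838, plus strand: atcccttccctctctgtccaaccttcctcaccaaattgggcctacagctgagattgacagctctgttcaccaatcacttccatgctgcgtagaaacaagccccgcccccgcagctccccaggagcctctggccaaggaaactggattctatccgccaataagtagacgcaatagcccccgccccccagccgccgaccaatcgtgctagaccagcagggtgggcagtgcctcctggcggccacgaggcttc
Pygl, chr12:70227684-70227933, minus strand: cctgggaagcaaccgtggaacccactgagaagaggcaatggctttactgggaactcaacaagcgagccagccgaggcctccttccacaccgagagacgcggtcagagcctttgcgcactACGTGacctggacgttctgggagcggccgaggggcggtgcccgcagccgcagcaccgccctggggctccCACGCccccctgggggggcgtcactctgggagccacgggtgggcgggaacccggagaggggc
G6pdx, chrX:74428881-74429130, minus strand: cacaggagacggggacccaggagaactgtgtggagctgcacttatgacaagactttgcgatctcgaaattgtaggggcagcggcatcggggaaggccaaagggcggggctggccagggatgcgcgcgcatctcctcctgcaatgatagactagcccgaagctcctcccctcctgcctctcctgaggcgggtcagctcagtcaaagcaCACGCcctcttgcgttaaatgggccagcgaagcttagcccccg
Windows were matched for 32 of the 34 genes (all but Slc2a3 and Galm), 45 windows in all because some genes have several starts. One of the pentamers or its complement stood in 32 of the 45 (71.1%), against 7028 of 12607 windows (55.7%) of the same length over 9909 of the genes tested. CACGTG, the E-box hexamer that MYC and other factors bind and that contains ACGTG, stood in 2 of the 45 (4.4%), against 8.3% of those windows. In the lines printed, Slc2a1, Hk2 and Pygl had 2 matches each, Pfkfb3, Aldoc and G6pdx had 1, and Gys1 had none. A match is a description of these letters, not a site of binding.

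**Figure D1:**
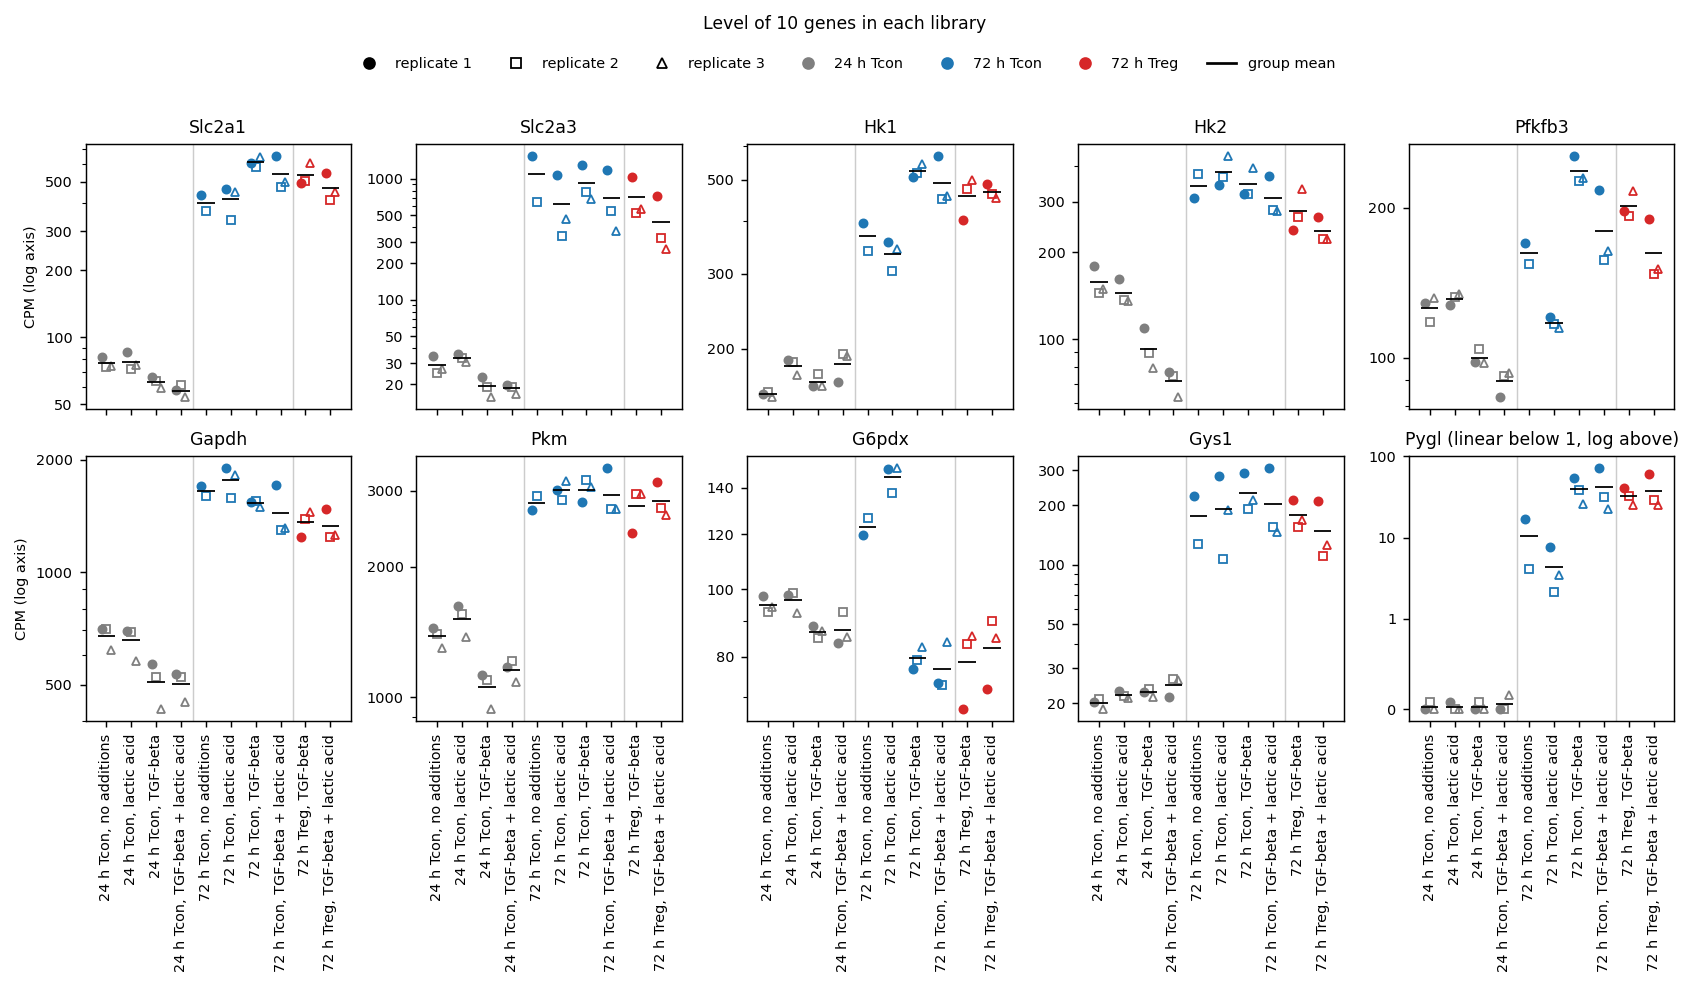
Expression (CPM, log axis; for Pygl the axis is linear below 1) of 10 genes in each of 29 libraries by group; circles are replicate 1, squares replicate 2 and triangles replicate 3, black lines are group means, grey is Tcon at 24 h, blue Tcon at 72 h and red Treg at 72 h. Pygl lies near 0 in every library at 24 h and between 2.17 and 71.9 CPM at 72 h, and the circles of Slc2a3 and Gys1 at 72 h lie above the squares and triangles of their group.

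Most genes of glycolysis rose between 24 and 72 h in Tcon of every medium: of the 20 genes from glucose transport to pyruvate kinase, 19 were called higher in plain medium, 17 with lactic acid, 18 with TGF-beta and 17 with both. Together the 34 genes took 0.706% ± 0.0278 (SD, n = 3) of gene counts at 24 h and 1.75% ± 0.149 (SD, n = 2) at 72 h in plain medium. With TGF-beta the shares were 0.605% ± 0.0503 and 1.91% ± 0.0924 (SD, n = 3 each). Group means lay between 0.605% and 0.764% in the 4 groups of 24 h and between 1.6% and 1.91% in the 6 groups of 72 h. Genes with a Benjamini-Hochberg adjusted p below 0.05 in edgeR's quasi-likelihood test over all 14375 genes tested are called higher or lower below, and differences are log2 fold changes ± SE.

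In plain medium, 26 of the 34 genes were called higher at 72 h and 1 lower, against 27.1% and 18.4% of all genes tested. With lactic acid the counts were 22 and 1 (all genes 26.5% and 20.1%), with TGF-beta 24 and 1 (28.0% and 24.8%), and with both additions 22 and 2 (24.4% and 23.0%). The median log2 difference of the 34 genes was 1.08, 0.88, 1.55 and 1.37 in these 4 media in that order, where that of all genes tested was between -0.02 and 0.05. Pygl is among these calls but met the count minimum through 72 h libraries alone; without it, 25, 21, 23 and 21 of 33 genes were called higher and the medians were 1.06, 0.88, 1.51 and 1.34. The labels do not link the 24 h and 72 h cultures, so that a difference in time cannot be told apart from a difference between experiments. B cell markers also differed: their sum was 233 to 253 CPM at 24 h and 84.5 to 124 CPM at 72 h in plain medium, and 131 to 134 and 85.8 to 106 CPM with TGF-beta. The 7 CD8 and natural killer cell markers summed to 104 to 127 and 22.3 to 24.9 CPM in plain medium, and to 15.5 to 20.1 and 31.6 to 73.3 CPM with TGF-beta. Ighm was at 238 ± 10.2 CPM (SD, n = 3) and 99.2 ± 26.1 CPM (SD, n = 2) and Eomes at 101 ± 11 and 13.8 ± 2.43 CPM at 24 and 72 h in plain medium. The part of these markers in the differences was not tested.

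Both glucose transporters were called higher in all 4 media. Slc2a1 (ENSMUSG00000028645) encodes GLUT1, the main transporter of activated T cells. In plain medium its level in replicates 1, 2 and 3 at 24 h was 82.0, 73.8 and 74.2 CPM, and 436 and 369.5 CPM in replicates 1 and 2 at 72 h. In TGF-beta medium it was 66.7, 63.4 and 59.0 CPM at 24 h and 607, 583 and 646 CPM at 72 h. The groups did not overlap, and the log2 difference was 2.39 ± 0.15 in plain medium and 3.28 ± 0.14 with TGF-beta (edgeR adjusted p 1.84e-11 and 5.69e-14). That is a fold of 5.25 and 9.71.

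Slc2a3 (ENSMUSG00000003153) encodes GLUT3, a transporter with high affinity for glucose. It went from 34.3, 24.9 and 27.0 CPM at 24 h to 1551 and 647 CPM at 72 h in plain medium. In lactic acid medium the values were 36.0, 33 and 30.4 CPM and 1072, 337 and 463 CPM. Replicate 1 was well above the other replicates at 72 h, and every 72 h library was above every 24 h library. The folds were 38.2, 18.8, 47.2 and 37.7 in plain, lactic acid, TGF-beta and combined medium (log2 5.26 ± 0.54, 4.23 ± 0.50, 5.56 ± 0.54 and 5.24 ± 0.53, edgeR adjusted p at most 3.43e-07).

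Hexokinases phosphorylate glucose, and glucose 6-phosphate isomerase (Gpi1) turns the product into fructose 6-phosphate. Hk1, Hk2 and Gpi1 were called higher at 72 h in all 4 media. Hk1 (ENSMUSG00000037012), the ubiquitous isozyme, was at 156, 158 and 154 CPM at 24 h and 396 and 339.8 CPM at 72 h in plain medium, a log2 difference of 1.24 ± 0.11. Hk2 (ENSMUSG00000000628), the inducible isozyme, was at 179, 145 and 149 CPM at 24 h and 309 and 373 CPM at 72 h, a log2 difference of 1.11 ± 0.16. With both additions Hk2 was at 76.7, 74.5 and 63.0 CPM at 24 h and 367, 282 and 278 CPM at 72 h, a log2 difference of 2.11 ± 0.15. No library of one time overlapped the other for either gene in these media. Gpi1 differed by 1.15 to 1.60 on the log2 scale across the media.

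Phosphofructokinase has liver (Pfkl), muscle (Pfkm) and platelet (Pfkp) subunits, all of which were called higher in the 4 media, by 0.85 (Pfkm, lactic acid) to 2.10 (Pfkp, both additions) on the log2 scale. The bifunctional enzymes Pfkfb3 and Pfkfb4 set the level of fructose 2,6-bisphosphate, the activator of phosphofructokinase. Pfkfb3 (ENSMUSG00000026773) was at 97.9, 104 and 97.7 CPM at 24 h and 255, 227 and 229 CPM at 72 h with TGF-beta, a log2 difference of 1.25 ± 0.11 (edgeR adjusted p 1.59e-09). In lactic acid medium it was at 128, 132 and 134 CPM at 24 h and 121, 117 and 115 CPM at 72 h, lower in each 72 h library, with a log2 difference of -0.16 ± 0.10 (adjusted p 0.21). In plain medium the difference was 0.37 ± 0.12 (adjusted p 0.013), which did not pass without replicate 1 of the 72 h group (0.144) or replicate 2 of the 24 h group (0.0523), nor without the filter on low counts (0.0706). Pfkfb4 was called lower in the medium with both additions, from 8.61, 8.92 and 11.6 CPM to 5.67, 5.03 and 5.02 CPM (-0.89 ± 0.24, adjusted p 0.00385), and was not called in the other 3 media.

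From aldolase to pyruvate kinase, 10, 9, 9 and 8 of 10 genes were called higher in plain, lactic acid, TGF-beta and combined medium. Aldoa, Tpi1 (triosephosphate isomerase), Gapdh, Pgk1 (phosphoglycerate kinase), Pgam1, Eno1 (the ubiquitous enolase) and Pkm (muscle pyruvate kinase) were called higher in all 4, by 0.84 (Pgam1, plain) to 2.51 (Tpi1, TGF-beta) on the log2 scale. Gapdh (ENSMUSG00000057666) was at 705, 705 and 620.3 CPM at 24 h and 1698 and 1602 CPM at 72 h in plain medium, a log2 difference of 1.29 ± 0.13. Pkm (ENSMUSG00000032294) was at 1448, 1399.8 and 1301 CPM and 2710.3 and 2911 CPM, a log2 difference of 1.02 ± 0.12. Neither gene's 24 h libraries reached its 72 h libraries. Counts of Aldoa, Eno1 and Gapdh are partly uncertain, because near-identical copies exist between which reads can be split.

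Aldoc, the brain-type aldolase, was near the detection limit at 24 h and differed far more than Aldoa. Its values were 0.889, 1.76 and 1.07 CPM at 24 h and 50.7 and 20.9 CPM at 72 h in plain medium. In TGF-beta medium they were 1.71, 1.84 and 2.19 CPM and 108, 81.2 and 57.9 CPM. The folds were 28.8, 10.0, 43.0 and 32.1 in plain, lactic acid, TGF-beta and combined medium (log2 4.85 ± 0.56, 3.32 ± 0.51, 5.43 ± 0.52 and 5.0 ± 0.51, edgeR adjusted p at most 1.33e-05). The folds of Aldoa were 2.76, 2.63, 3.86 and 3.29.

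The minor enolases did not move alike. Eno2, the neuronal enolase, was called higher in plain medium (1.58 ± 0.61) and with TGF-beta (2.15 ± 0.57). In TGF-beta medium at 72 h it was at 24.6, 7.19 and 5.94 CPM with replicate 1 far above the others. Without that library the adjusted p was 0.0733, and in plain medium the call was lost without replicate 1 of the 72 h group (0.369) and without each of the 3 libraries of the 24 h group (0.0737 to 0.0867). Eno3, the muscle enolase, was called higher in plain medium (0.74 ± 0.16) and with lactic acid (0.86 ± 0.14), and differed by 0.11 ± 0.14 and 0.29 ± 0.15 in the TGF-beta media, without passing.

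Of the side steps, Bpgm, which makes 2,3-bisphosphoglycerate, was called lower at 72 h in lactic acid, TGF-beta and combined medium. With TGF-beta it was at 27.6, 27.8 and 25.4 CPM at 24 h and 12.1, 15.5 and 13.1 CPM at 72 h, with no overlap (-0.99 ± 0.12, edgeR adjusted p 2.36e-07). With lactic acid it was at 25.0, 25.3 and 24.1 and 18.1, 19.2 and 17.8 CPM (-0.43 ± 0.11, adjusted p 0.00333). In combined medium it was at 27.8, 26.8 and 26.7 and 10.9, 14.3 and 14.6 CPM (-1.03 ± 0.12, adjusted p 1.25e-07). These falls ran opposite to the rises of the glycolytic enzymes around it. Galm, the aldose 1-epimerase, was called higher in plain medium (1.06 ± 0.16, adjusted p 1.5e-05).

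Of the 7 pentose phosphate genes, 2 were called higher in plain and lactic acid medium, where 27.1% and 26.5% of all genes were, so that their share was near that of all genes. In each TGF-beta medium 1 was called higher (28.0% and 24.4% of all genes), and Rpia was called lower in plain medium. The call of G6pdx in plain medium (0.37 ± 0.10, edgeR adjusted p 0.00336) was lost without the filter on low counts (0.0532). G6pdx (ENSMUSG00000031400), the first and committed enzyme, was at 98.2, 98.8 and 92.4 CPM at 24 h and 149, 137 and 149 CPM at 72 h with lactic acid, a log2 difference of 0.59 ± 0.09. In TGF-beta medium it was at 88.5, 85.1 and 87.1 CPM and 76.8, 79.2 and 82.7 CPM, which differed by -0.13 ± 0.09 (edgeR adjusted p 0.231). Pgls, the lactonase that follows it, was called higher in all 4 media by 0.38 to 0.78. Its call was lost without replicate 2 of the 72 h group in plain medium (0.116), without replicate 2 of the 24 h group in combined medium (0.0766), and in 5 of 6 fits that left out 1 library in TGF-beta medium (all but replicate 1 of the 72 h group, 0.0532 to 0.238). Rpia, the ribose 5-phosphate isomerase, was at 96.6, 95 and 97.3 CPM at 24 h and 52.9 and 69.5 CPM at 72 h in plain medium (-0.65 ± 0.20, adjusted p 0.0111), and did not pass without replicate 1 of the 72 h group (0.176). Pgd, Rpe, Tkt and Taldo1, the remaining enzymes of both branches, were called in no medium.

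Of the 4 glycogen genes other than Pygl, 3, 2, 4 and 3 were called higher in plain, lactic acid, TGF-beta and combined medium, and 0 lower, where 27.1%, 26.5%, 28.0% and 24.4% of all genes were called higher. Gys1 (ENSMUSG00000003865), the glycogen synthase of muscle and most other tissues, was at 20.3, 21.0 and 18.7 CPM at 24 h and 223 and 128 CPM at 72 h in plain medium. In TGF-beta medium it was at 22.9, 23.7 and 21.6 CPM and 291, 191 and 211 CPM. The folds were 8.76, 8.70, 10.2 and 8.22 across the 4 media (log2 3.13 ± 0.34, 3.12 ± 0.32, 3.35 ± 0.33 and 3.04 ± 0.32). Gbe1, the branching enzyme, differed by 1.38 ± 0.33 in plain and 2.39 ± 0.31 in combined medium, and its call in plain medium was lost without replicate 1 of the 72 h group (adjusted p 0.063). Ugp2, which makes the UDP-glucose that glycogen synthase uses, was called in 3 media by 0.32 to 0.61; the call was lost in plain medium without replicate 1 of the 72 h group (0.052), and in combined medium without replicate 1 (0.0583) or 2 (0.0516) of the 24 h group or replicate 1 of the 72 h group (0.094), and with the female replicates alone (0.0685). Pygb, the brain-type phosphorylase, was called with TGF-beta (0.39 ± 0.13), and not without replicate 3 of the 24 h group (0.0625) or replicate 2 of the 72 h group (0.0801).

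Pygl (ENSMUSG00000021069), the phosphorylase that releases glucose from glycogen in liver, had 0, 1 and 0 counts at 24 h in plain medium and 198 and 54 counts at 72 h. With TGF-beta it had 0, 1 and 0 counts at 24 h and 651, 491 and 332 counts at 72 h. Since Pygl was kept through its 72 h libraries alone, its difference with time is a description, with no fold and no test. In CPM, Pygl at 72 h was at 16.9 and 4.15 in plain medium, 7.62, 2.17 and 3.43 with lactic acid, 53.5, 38.4 and 26.3 with TGF-beta and 71.9, 32.0 and 22.8 with both.

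**Figure D2:**
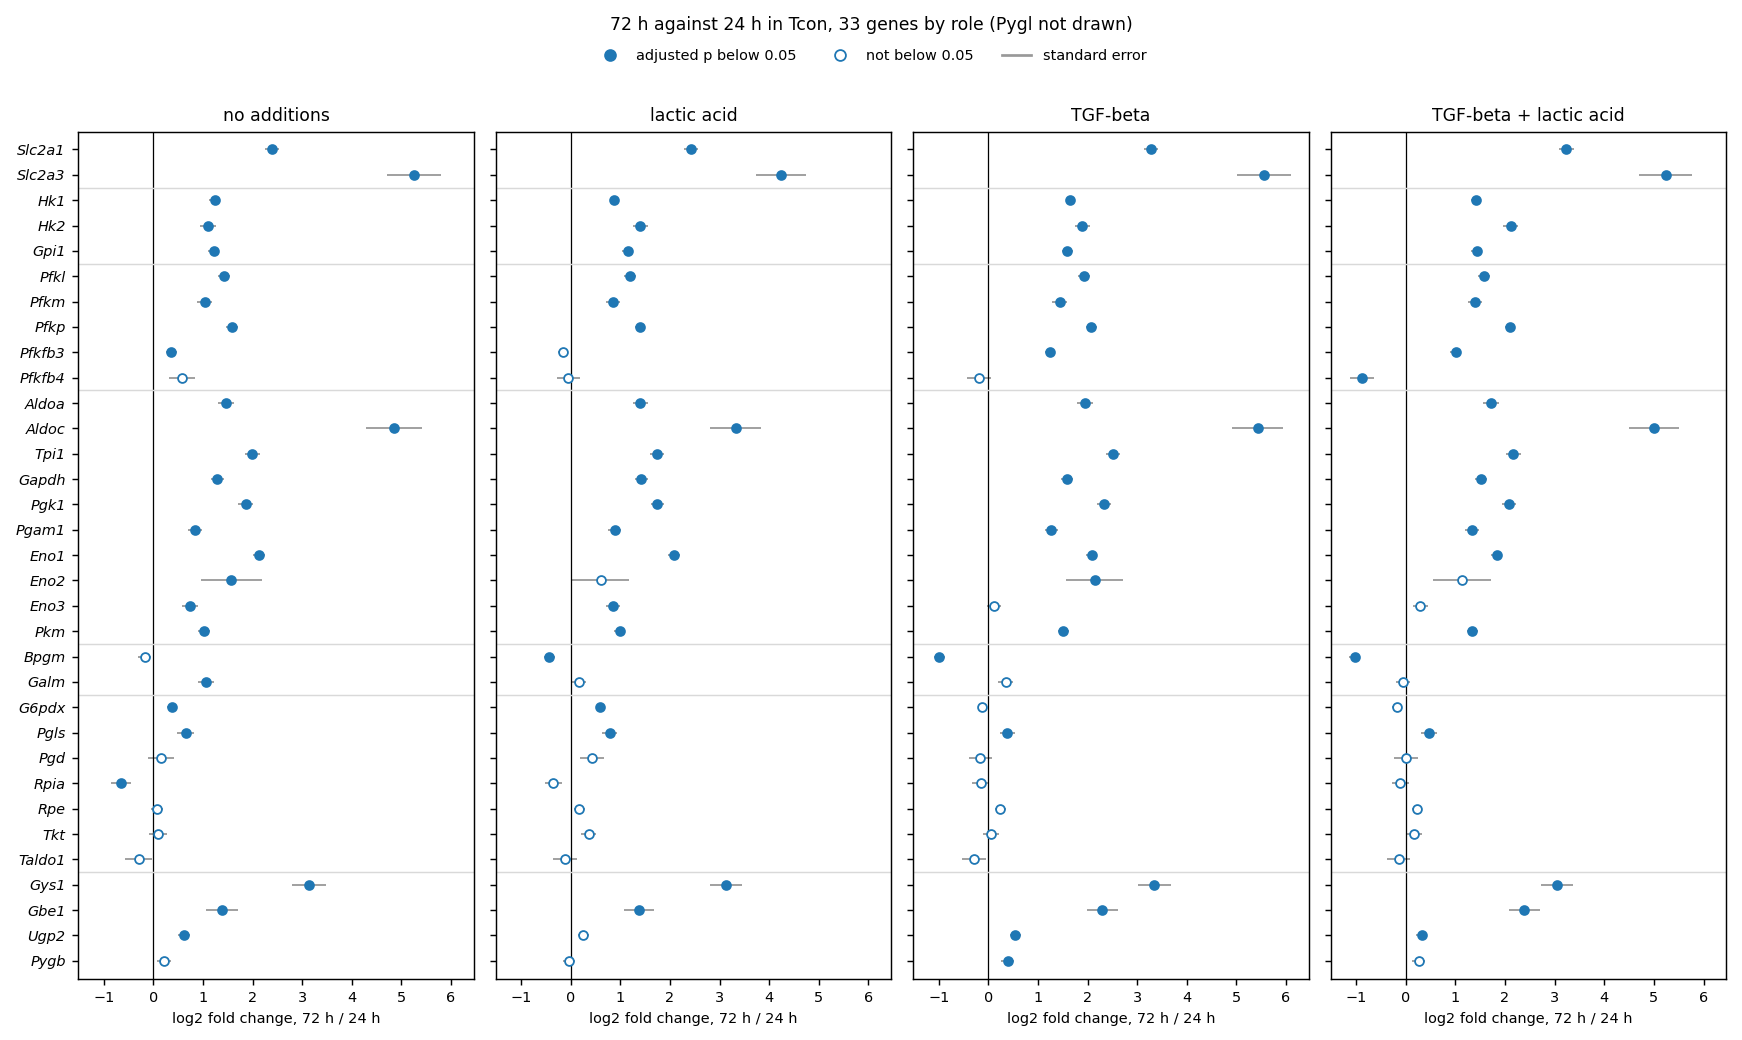
Log2 fold change of 72 h against 24 h in Tcon (± SE) for 33 genes in 4 media; filled points have an edgeR adjusted p below 0.05, and Pygl is not drawn because it had at most 2 counts in any 24 h library. Transport, hexokinase, phosphofructokinase and triose genes lie to the right of 0, with Slc2a3 and Aldoc farthest, and Bpgm lies at -0.99 with TGF-beta.

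Replicate 1, the male replicate, stood apart among the 72 h libraries. It had the highest level of its group in all 6 groups of 72 h for 8 of the 34 genes, against 15.5% of all genes tested: Slc2a3, Gpi1, Aldoa, Aldoc, Eno2, Gys1, Gbe1 and Pygl. Its level relative to the mean of the other replicates was 1.78 to 2.68 for Slc2a3, 1.31 to 2.03 for Gys1 and 1.40 to 4.09 for Pygl. It was the lowest in all 6 groups for 4 genes, against 17.6% of all genes: Pgd, Rpia, Tkt and Taldo1, all of the pentose phosphate pathway, with ratios of 0.486 to 0.775 for Pgd and 0.468 to 0.77 for Taldo1. At 24 h it was highest in all 4 groups for 7 genes and lowest for 0, against 5.45% and 7.03% of all genes. Since 1 replicate number was male, sex and culture cannot be told apart.

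TGF-beta was compared with its absence in Tcon at each time, with and without lactic acid in both media. At 24 h without lactic acid, 5 of the 34 genes were called lower with TGF-beta and 2 higher, where 3.35% and 7.96% of all genes tested were. With the replicates paired, as the deviations of same-numbered libraries allow, 11 were lower and 4 higher, where 15.1% and 16.6% of all genes were. The median log2 difference of the 34 genes was -0.15, and that of all genes 0.00. Marker levels moved as well: the B cell markers summed to 233 to 253 CPM without and 131 to 134 CPM with TGF-beta, the CD8 and natural killer cell markers to 104 to 127 and 15.5 to 20.1 CPM, and the 4 Treg markers to 870.1 to 880.0 and 1274 to 1364 CPM. Single markers did not all move alike: Ighm was at 238 ± 10.2 and 129.9 ± 2.31 CPM without and with TGF-beta, Cd79a at 0.0822 ± 0.00752 and 0.232 ± 0.116 CPM and Cd79b at 0.577 ± 0.116 and 0.92 ± 0.268 CPM, and Eomes at 101 ± 11 and 11.4 ± 3.66 CPM (SD, n = 3 each). The Treg sum was mostly Il2ra, at 834 ± 0.522 and 1203 ± 54 CPM, while Foxp3 was at 1.2 ± 0.124 and 47.3 ± 4.38 CPM. Ikzf2 was at 11.2 ± 2.07 and 19.1 ± 1.44 CPM and Ctla4 at 27.7 ± 3.43 and 60.1 ± 7.78 CPM (SD, n = 3 each). The part of all these markers in the differences was not tested.

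Hk2 fell with TGF-beta at 24 h from 179, 145 and 149 CPM to 109, 89.5 and 79.1 CPM. The groups did not overlap (-0.77 ± 0.15, edgeR adjusted p 0.000963), and this call was kept whichever library was left out. Gapdh fell from 705, 705 and 620.3 CPM to 569, 525 and 431 CPM (-0.41 ± 0.12, 0.0261). Pgk1 fell from 146, 139.7 and 129.6 CPM to 111, 107 and 87.0 CPM (-0.44 ± 0.14, 0.0375). Pkm (-0.39 ± 0.11, 0.0177) and Pfkfb3 (-0.34 ± 0.10, 0.0393) also fell. Bpgm rose from 20.9, 21.8 and 19.1 CPM to 27.6, 27.8 and 25.4 CPM (0.39 ± 0.11, 0.0286), and Ugp2 rose from 41.4, 42.5 and 40.6 CPM to 57.8, 52.4 and 53.8 CPM (0.40 ± 0.11, 0.0213). Each of the 6 calls other than that of Hk2 was lost in 3 to 5 of the 6 fits that left out 1 library, and every library, when left out, ended at least 1 of them (edgeR adjusted p 0.0512 to 0.226). Bpgm also did not pass with RLE scaling (0.0502), nor did Bpgm (0.263) and Ugp2 (0.0954) without the filter on low counts. With the replicates paired, Slc2a1 (-0.28), Slc2a3 (-0.57), Aldoa (-0.22), Tpi1 (-0.32), Pgam1 (-0.32) and Rpia (-0.28) were also lower and Pfkfb4 (0.52) and Galm (0.41) higher.

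With lactic acid in both media, TGF-beta at 24 h gave 7 of 34 genes called lower and 0 higher, where 4.38% and 8.06% of all genes were. With the replicates paired, 13 were lower and 3 higher, where 15.1% and 17.3% of all genes were. By DESeq2, 0 were higher and 9 lower, and 11 had an unadjusted p below 0.05 in edgeR. Hk2 fell from 162, 137 and 135 CPM to 76.7, 74.5 and 63.0 CPM (-1.02 ± 0.15, edgeR adjusted p 3.5e-05). Pfkfb3 fell from 128, 132 and 134 CPM to 83.4, 92 and 93.3 CPM (-0.55 ± 0.11, 0.000725). Both calls were kept whichever library was left out. Tpi1 fell from 431, 383 and 324 CPM to 309, 281 and 240.3 CPM (-0.46 ± 0.14, 0.0355). Pgam1 (-0.45 ± 0.13), Slc2a1 (-0.43 ± 0.13), Pkm (-0.39 ± 0.11) and Gapdh (-0.38 ± 0.12) fell too. These 5 calls were each lost in 3 to 6 of 6 fits that left out 1 library, and each of the 6 libraries ended at least 1 of them (0.0528 to 0.205), and that of Slc2a1 was lost with the female replicates alone (0.0549). The B cell markers summed to 218 to 237 and 138 to 154 CPM and markers of CD8 and natural killer cells to 126 to 149 and 17.4 to 25.6 CPM without and with TGF-beta, and their part was not tested.

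At 72 h without lactic acid, 5 of the 34 genes were called higher with TGF-beta and 3 lower, where 12.8% and 11.7% of all genes tested were, so that the share of members was near that of all genes. With the replicates paired, 14 were higher and 6 lower, where 21.3% and 24.1% of all genes were. Slc2a1 rose from 436 and 369.5 CPM to 607, 583 and 646 CPM (0.60 ± 0.15, edgeR adjusted p 0.00422). Hk1 rose from 396 and 339.8 CPM to 508, 519 and 546 CPM (0.51 ± 0.11, 0.00115), while Hk2 was at 309 and 373 and 320.2, 319.7 and 394 CPM, which overlapped (0.02 ± 0.16, 0.958). Pfkfb3 rose from 170.4 and 154 CPM to 255, 227 and 229 CPM (0.54 ± 0.12, 0.00136), and Pfkp rose by 0.38 ± 0.11 (0.018). Pygl rose from 16.9 and 4.15 CPM to 53.5, 38.4 and 26.3 CPM, a fold of 3.75 (1.91 ± 0.55, 0.0127).

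The 3 genes called lower at 72 h were G6pdx, Eno3 and Bpgm. G6pdx fell from 119.6 and 127 CPM to 76.8, 79.2 and 82.7 CPM (-0.63 ± 0.10, edgeR adjusted p 3.57e-05), and Eno3 fell from 72.7 and 61.9 CPM to 33.3, 39.8 and 40.0 CPM (-0.84 ± 0.16, 0.000354). Bpgm fell from 18 and 18.7 CPM to 12.1, 15.5 and 13.1 CPM (-0.43 ± 0.13, 0.0162). The values of these 3 did not overlap between the groups, which describes the same libraries that gave the calls and adds no support to them. The plain group has 2 libraries: without its replicate 2 the calls of Slc2a1 (0.0926), Pygl (0.208), Pfkp (0.306) and Bpgm (0.0832) were lost, Pfkp was also lost without replicate 3 (0.058) of the TGF-beta group, and Bpgm without replicate 1 of either group (0.0573 and 0.0695). With the compared groups alone, the calls of Hk1 (0.0575), Pfkp (0.154), Pfkfb3 (0.0524), Bpgm (0.227) and Pygl (0.127) were lost, and that of Bpgm also without the filter on low counts (0.163). Paired, Gpi1, Pfkm, Aldoa, Aldoc (1.5 ± 0.19), Eno2, Gys1 (0.50 ± 0.14), Gbe1 (0.76 ± 0.13), Ugp2 and Pygb were also higher, and Galm, Pgd (-0.63 ± 0.11) and Tkt lower. The CD8 and natural killer cell markers summed to 22.3 to 24.9 CPM without and 31.6 to 73.3 CPM with TGF-beta (Eomes 13.8 ± 2.43 and 37.8 ± 18 CPM). Single genes of this list did not all move alike. Cd8b1 was at 8.28 ± 3.78 CPM without and 5.76 ± 0.932 CPM with TGF-beta. Cd8a was at 0.359 ± 0.144 and 9.52 ± 6.7 CPM and Klrd1 at 0.838 ± 0.751 and 4.8 ± 0.793 CPM. The Treg markers summed to 1504 to 1884 and 1675 to 2519 CPM, mostly Il2ra (1451 ± 327 and 1893 ± 447 CPM). Foxp3 was at 0.154 ± 0.217 and 23.4 ± 10.8 CPM, Ikzf2 at 21.9 ± 6.89 and 101 ± 27.4 CPM and Ctla4 at 221 ± 51.8 and 184 ± 36.2 CPM (SD, n = 2 without and 3 with TGF-beta). The part of these markers was not tested.

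With lactic acid in both media, 10 of 34 genes were called higher with TGF-beta at 72 h and 8 lower. Of all genes, 22.5% were called higher and 22.5% lower. The share of members called lower was thus near that of all genes, and the share called higher somewhat above it. With the replicates paired, 11 were higher and 9 lower, where 29.1% and 30.9% of all genes were. Paired, Gpi1 was also higher and Hk2 also lower. Pygl rose from 7.62, 2.17 and 3.43 CPM to 71.9, 32.0 and 22.8 CPM, a fold of 9.75 (3.28 ± 0.51, edgeR adjusted p 1.78e-05). Aldoc rose from 31.9, 9.98 and 15.1 CPM to 111, 53.1 and 38.1 CPM, a fold of 3.56 (1.83 ± 0.41, 0.000843). Gbe1 rose from 70.7, 33.8 and 48.1 CPM to 143, 64.2 and 65.0 CPM, which overlapped (0.84 ± 0.29, 0.0235). Further rises were those of Pfkfb3 (0.61 ± 0.10), Hk1 (0.55 ± 0.10), Pfkm (0.52 ± 0.14), Pfkp (0.51 ± 0.10), Slc2a1 (0.38 ± 0.13), Pygb and Ugp2, so that 4 of the 5 glycogen genes were called higher.

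G6pdx fell in this medium from 149, 137 and 149 CPM to 73.2, 72.8 and 84.1 CPM, with no overlap (-0.92 ± 0.09, edgeR adjusted p 1.82e-08). Pgd, the second NADPH-forming enzyme of the oxidative branch, fell from 199.8, 301 and 287 CPM to 139, 168 and 191 CPM (-0.66 ± 0.24, 0.0268). Pgls (-0.41 ± 0.15) and Tkt (-0.41 ± 0.16), the transketolase, fell as well. In all, 4 of 7 pentose phosphate genes were called lower, where 22.5% of all genes were. Eno3 fell from 53.1, 69.6 and 53.8 CPM to 39.0, 34.6 and 38.1 CPM (-0.66 ± 0.14), and Bpgm (-0.47 ± 0.12), Eno1 (-0.35 ± 0.11) and Gapdh (-0.29 ± 0.12) fell. The calls of Hk1, Pfkm, Pfkp, Pfkfb3, Aldoc, Eno3, Bpgm, G6pdx and Pygl were kept whichever library was left out. The other 9 were each lost in 2 to 5 of 6 such fits, and every library ended at least 1 (edgeR adjusted p 0.0531 to 0.335). With the compared groups alone, Slc2a1 (0.108), Gapdh (0.173), Eno1 (0.0506), Gbe1 (0.107) and Ugp2 (0.0881) did not pass. Gapdh did not pass by DESeq2 (0.07), with RLE scaling (0.0772) or without the filter (0.163) either, nor Tkt by DESeq2 (0.0525) or with RLE scaling (0.0562), nor Eno1 without the filter (0.0594). The CD8 and natural killer cell markers summed to 13.6 to 26.5 CPM without and 64.1 to 112 CPM with TGF-beta, and the B cell markers to 105 to 135 and 186 to 194 CPM, whose part was not tested.

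Whether the response to TGF-beta differed between 24 and 72 h was tested by an interaction term, which subtracts the log2 difference at 24 h from that at 72 h. Without lactic acid, 3 of the 34 genes had a higher response at 72 h and 2 a lower one, where 2.39% and 3.33% of all genes were called. Paired, the counts were 13 and 5, where 8.08% and 11.4% of all genes were called. With lactic acid, 5 were higher and 2 lower (6.73% and 7.66% of all genes), and paired 16 and 5 (14.8% and 18.8% of all genes). The log2 difference of Slc2a1 with TGF-beta was -0.28 ± 0.13 at 24 h and 0.60 ± 0.15 at 72 h without lactic acid, and -0.43 ± 0.13 and 0.38 ± 0.13 with it. The response differed by 0.89 ± 0.20 without (edgeR adjusted p 0.00806) and 0.81 ± 0.19 with lactic acid (0.00492). Pfkfb3 was called lower at 24 h and higher at 72 h in both settings, and its response differed by 0.88 ± 0.16 (0.00126) and 1.17 ± 0.15 (1.19e-05). Hk2, called lower at 24 h, differed by 0.02 ± 0.16 at 72 h without and -0.30 ± 0.15 with lactic acid. The paired fit called Hk2 lower at 72 h with lactic acid too. The response of Hk2 differed by 0.79 ± 0.22 (0.0373) without and 0.72 ± 0.21 (0.0237) with lactic acid.

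Bpgm and G6pdx had interactions of the opposite sign. For Bpgm they were -0.82 ± 0.17 (edgeR adjusted p 0.005) without and -0.60 ± 0.16 (0.0143) with lactic acid, and for G6pdx -0.50 ± 0.13 (0.0238) and -0.78 ± 0.12 (0.000167). With lactic acid, Hk1 (0.54 ± 0.14, 0.00911) and Pfkp (0.71 ± 0.14, 0.00169) also had a higher response at 72 h. The call of Hk2 was lost in 6 of 11 fits that left out 1 library without lactic acid and in 3 of 12 with it, and that of G6pdx in 5 of 11 without lactic acid; over these genes, 10 of the 11 libraries ended a call without lactic acid (adjusted p 0.0504 to 0.178) and 3 of the 12 with it (0.0634 to 0.0719). Without the filter on low counts, Bpgm did not pass in either setting (0.0685 without and 0.204 with lactic acid), nor did G6pdx without lactic acid (0.244). Hk2 did not pass without lactic acid when the compared groups were fitted alone (0.06), nor with it in the female replicates alone (0.0623).

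**Figure D3:**
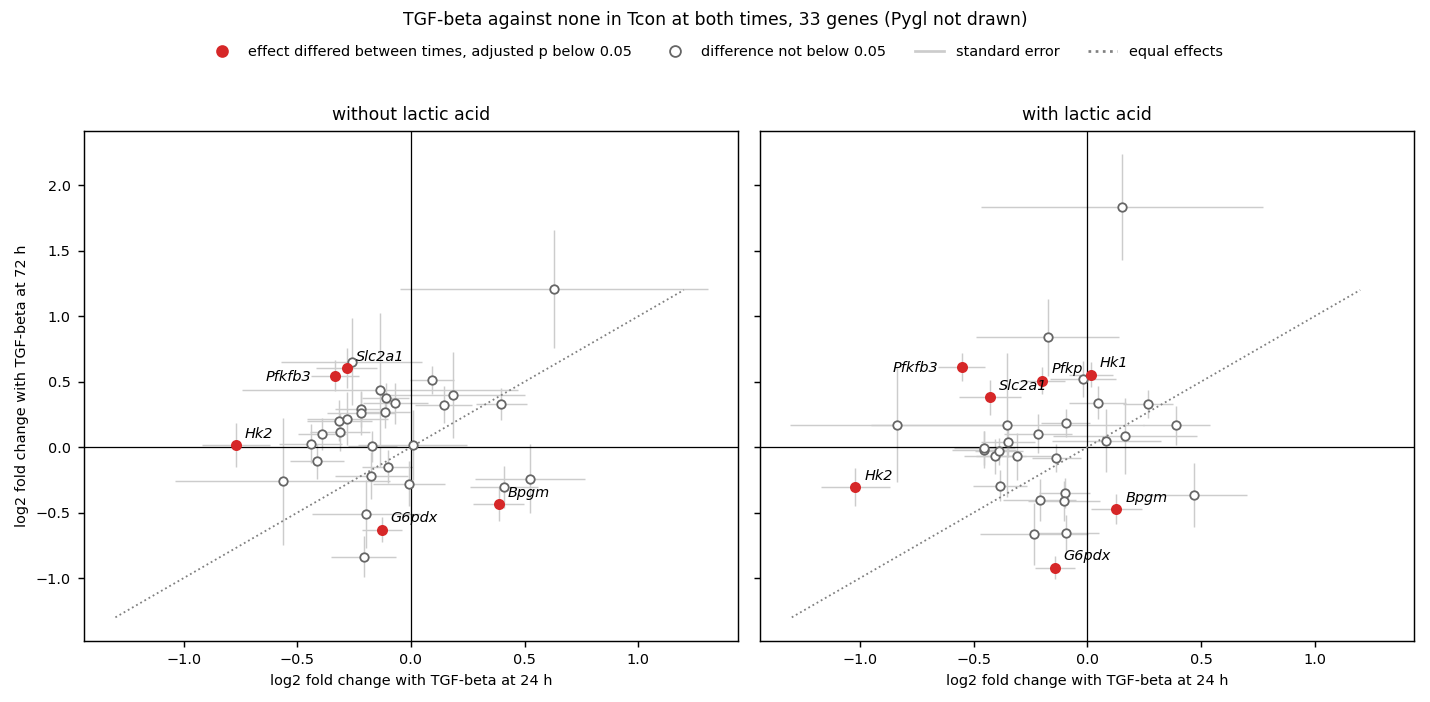
Log2 fold change with TGF-beta in Tcon at 24 h (horizontal axis) and at 72 h (vertical axis) for 33 genes (Pygl is not drawn), without lactic acid in the left panel and with it in the right panel; red points are genes whose interaction of TGF-beta and time has an edgeR adjusted p below 0.05, and the diagonal is an equal response. Slc2a1 and Pfkfb3 lie left of 0 and above 0 in both panels, and G6pdx and Bpgm lie below the diagonal.

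Lactic acid is the end product of glycolysis in activated T cells and accumulates in tumours and inflamed tissue. Of the 34 genes, 1 passed the test in 1 of 5 comparisons with it. At 24 h without TGF-beta, edgeR called 0 of the 34 genes (0.0835% of all genes tested), with 8 at an unadjusted p below 0.05, and DESeq2 called 0. Paired, 2 were higher, Tpi1 and Ugp2, where 4.27% of all genes were called. Tpi1 was at 302, 290.1 and 252 CPM without and 431, 383 and 324 CPM with lactic acid, with no overlap (0.43 ± 0.14, adjusted p 0.41, paired 0.0123). Ugp2 was at 41.4, 42.5 and 40.6 and 51.1, 51.2 and 48.2 CPM (0.27 ± 0.11, 0.575, paired 0.0343). At 24 h with TGF-beta, edgeR called 0 of 34 (0.23% of all genes), with 2 at an unadjusted p below 0.05, and DESeq2 called 0. Hk2 was at 109, 89.5 and 79.1 CPM without and 76.7, 74.5 and 63.0 CPM with lactic acid (-0.37 ± 0.15, 0.477), and Eno1 differed by 0.24 ± 0.11 (0.59).

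At 72 h, Pfkfb3 passed the test for lactic acid in 1 of 3 comparisons. In all 3 it was lower in every library with lactic acid than in any without it. This describes the same libraries that were tested and adds no support to the call. In Tcon with TGF-beta, 1 of 34 genes was called, Pfkfb3, where 2.16% of all genes were. It fell from 255, 227 and 229 CPM to 217, 157 and 164 CPM, with no overlap (-0.40 ± 0.10, edgeR adjusted p 0.0422, paired 0.000626). The call was lost in 5 of 6 fits that left out 1 library, all but that without replicate 1 of the combined medium (0.0604 to 0.297), without the filter on low counts (0.0648) and with the compared groups alone (0.347). Paired, 1 gene was higher, Taldo1 (0.37 ± 0.10), and 3 lower, Pfkfb3, Slc2a3 (-0.50 ± 0.13) and Eno2 (-0.99 ± 0.20), where 15.4% of all genes were called.

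In Tcon without TGF-beta at 72 h, edgeR called 0 of 34 genes (0.0696% of all genes), with 5 at an unadjusted p below 0.05, and DESeq2 called 2 lower. Pfkfb3 was at 170.4 and 154 CPM without and 121, 117 and 115 CPM with lactic acid, with no overlap (-0.47 ± 0.12, adjusted p 0.138, paired 0.00749). Galm was at 43.5 and 28.2 and 23.0, 20.0 and 23.1 CPM (-0.70 ± 0.16, 0.103, paired 0.000623). Paired, these and Slc2a3 (-0.62 ± 0.15, 0.0234) were called lower, where 2.3% of all genes were.

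In Treg at 72 h, edgeR called 0 of 34 genes (3.51% of all genes), with 3 at an unadjusted p below 0.05, and DESeq2 called 1 lower. Eno2 was at 22.9, 7.15 and 5.56 CPM without and 4.82, 2.07 and 3.00 CPM with lactic acid, with no overlap (-1.85 ± 0.56, adjusted p 0.0706, paired 3.91e-06). Pfkfb3 was at 197, 192 and 216 and 189.9, 147 and 151 CPM, with no overlap (-0.31 ± 0.10, 0.102, paired 0.00428). Paired, Slc2a3 (-0.77 ± 0.13), Eno2 and Pfkfb3 were called lower and Pfkm (0.32 ± 0.11) and Taldo1 (0.42 ± 0.10) higher, where 19.7% of all genes were called. The B cell markers summed to 102 to 152 CPM without and 259.9 to 301 CPM with lactic acid in Treg and to 85.8 to 106 and 186 to 194 CPM in Tcon with TGF-beta, and their part was not tested.

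Tests of whether the lactic acid response differed between settings called none of the 34 genes. Between the media with and without TGF-beta at 24 h, edgeR and DESeq2 called 0, with 0 at an unadjusted p below 0.05 (0.0% of all genes called), and the smallest p belonged to Bpgm (-0.26 ± 0.16) and Pfkfb3 (-0.22 ± 0.15). At 72 h both called 0, with 2 at an unadjusted p below 0.05 (0.104% of all genes), G6pdx (-0.29 ± 0.13, edgeR adjusted p 0.596) and Galm (0.47 ± 0.22, 0.615). Between Treg and Tcon both called 0, with 1 at an unadjusted p below 0.05 (0.0% of all genes), and the smallest p belonged to Galm (0.47 ± 0.21) and Pfkp (-0.19 ± 0.14).

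**Figure D4:**
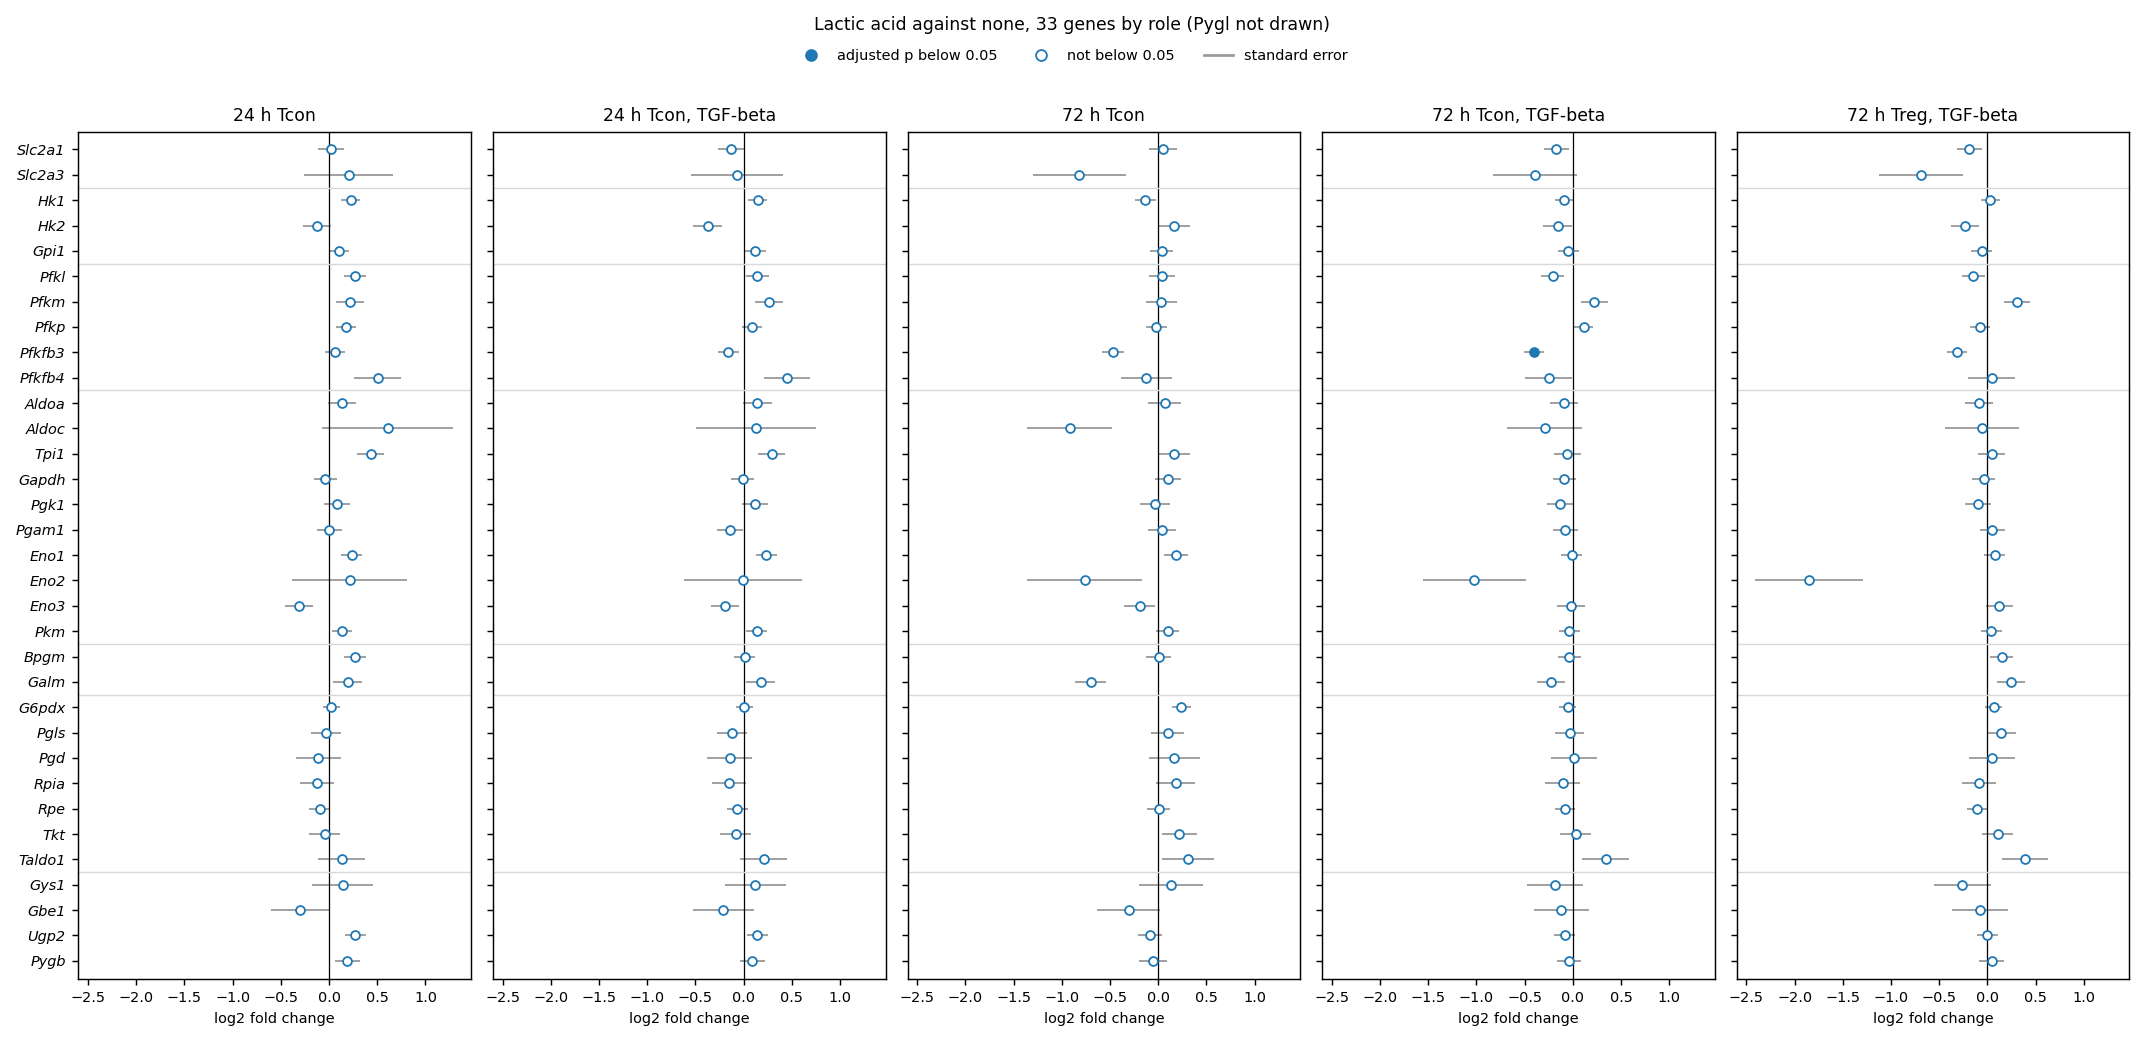
Log2 fold change with lactic acid (± SE) for 33 genes in 5 comparisons, Tcon without and with TGF-beta at 24 h, Tcon without and with TGF-beta at 72 h, and Treg at 72 h; filled points have an edgeR adjusted p below 0.05, and Pygl is not drawn. Pfkfb3 in Tcon with TGF-beta at 72 h (-0.40) is the filled point, and Eno2 in Treg (-1.85) is farthest left.

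No member passed the test between Treg and Tcon of the same medium. Without lactic acid, edgeR called 0 of the 34 genes (0.216% of all genes), with 5 at an unadjusted p below 0.05, and DESeq2 called 0. The smallest p belonged to Eno3, at 33.3, 39.8 and 40.0 CPM in Tcon and 38.2, 56.0 and 51.4 CPM in Treg (0.37 ± 0.14, adjusted p 0.64), and to Pfkfb3, at 255, 227 and 229 and 197, 192 and 216 CPM (-0.23 ± 0.10, 0.8). Of the 34 log2 differences, 27 were negative and 7 positive, with a median of -0.16 against 0.00 over all genes tested.

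With lactic acid, edgeR called 0 of 34 (2.55% of all genes), with 3 at an unadjusted p below 0.05, and DESeq2 called 1 higher and 1 lower. Eno3 was at 39.0, 34.6 and 38.1 CPM in Tcon and 57.6, 48.7 and 52.3 CPM in Treg, with no overlap (0.50 ± 0.14, adjusted p 0.0671, paired 0.00578). Pfkp was at 1538, 1324 and 1314 CPM in Tcon and 1245, 983 and 1067 CPM in Treg, with no overlap (-0.34 ± 0.10, 0.0836, paired 0.00185). Paired, Eno3 was called higher in Treg and 7 genes lower: Slc2a3 (-0.66), Hk2 (-0.39), Gpi1 (-0.18), Pfkp, Aldoa (-0.24), Eno2 (-0.84) and Gys1 (-0.43). Of all genes, 7% were called higher and 5.75% lower. The B cell markers summed to 186 to 194 CPM in Tcon and 259.9 to 301 CPM in Treg of this medium, whose part was not tested.

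Within the isozyme families, levels were compared per kilobase of exon, as shares of the family's sum. GLUT1 (Slc2a1) made up 76.5% ± 1.99 (SD, n = 3) of Slc2a1 and Slc2a3 at 24 h in plain medium and 33.2% ± 11 (SD, n = 2) at 72 h. In TGF-beta medium its share was 79.9% ± 2.12 at 24 h and 45.8% ± 8.74 at 72 h (SD, n = 3 each), and in Treg of combined medium 58.7% ± 10.0. Hk1 made up 53.5% ± 2.83 of Hk1 and Hk2 in plain medium at 24 h and 74.8% ± 3.18 in combined medium, where Hk2 was at its lowest. At 72 h its share was 50.5% ± 3.63 with lactic acid and 69.7% ± 1.42 in Treg of combined medium, the lowest and the highest group means of that time.

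Pfkp was the main phosphofructokinase subunit by this measure in all groups, with mean shares of 55.2% to 58.2% at 24 h and 59.1% to 65.8% at 72 h, and Pfkm the least. Eno1 was 82.3% to 87.0% of the 3 enolases at 24 h and 92.2% to 94.9% at 72 h, and Eno3 fell from 17.0% ± 0.879 to 7.27% ± 0.723 in plain medium as a share, while its own level rose by 0.74 and that of Eno1 by 2.13 on the log2 scale. Pygl made up at most 0.05% of Pygb and Pygl in the group means of 24 h, and at most 0.149% in a single library. At 72 h its share was 9.46% ± 7.5 in plain medium, 4.38% ± 2.42 with lactic acid, 24.6% ± 8.87 with TGF-beta and 25.8% ± 14.1 with both. In Treg it was 20.8% ± 7.38 without and 21.9% ± 10.1 with lactic acid. These shares are descriptions, with no test.

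**Figure D5:**
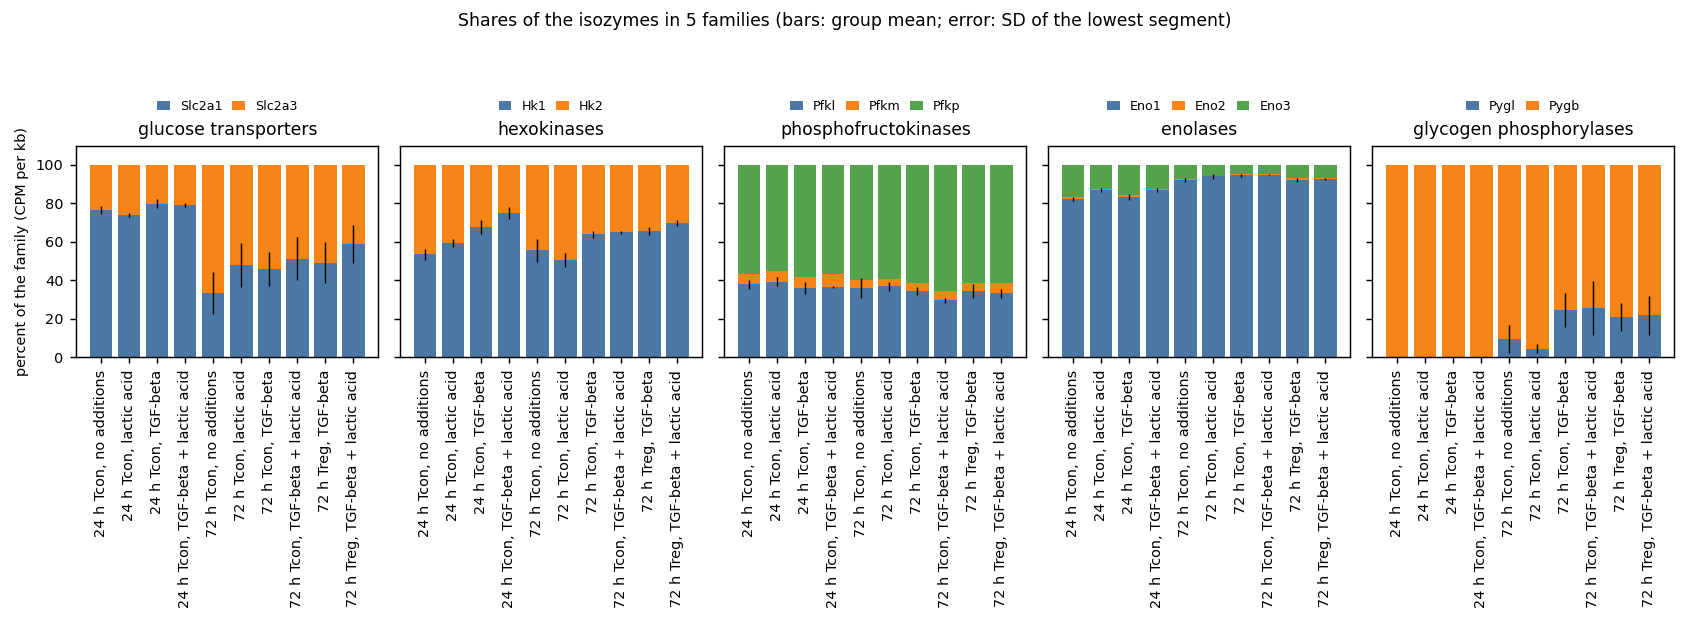
Share (percent) of each isozyme in the CPM per kilobase of its family, as group means for 10 groups and 5 families; error bars are the SD of the lowest segment over the libraries of the group. The Slc2a1 segment is 74% to 79.9% at 24 h and 33.2% to 58.7% at 72 h, and the Pygl segment is at most 0.05% at 24 h.

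Genes next to these in metabolism were described from 7 lists, of which other glycogen genes had 19 tested, regulators 16, sugar nucleotide genes 13, fate of pyruvate and other isozymes 11 each, NADPH partners 9 and other pentose phosphate genes 6. With time in plain medium, 9 of the 19 other glycogen genes were called higher and 2 lower, 6 of 11 genes of the fate of pyruvate higher and 0 lower, 5 of 16 regulators higher and 3 lower, and 0 of 6 other pentose phosphate genes higher and 2 lower, against 27.1% higher and 18.4% lower of all genes tested. The shares of the regulators were near those of all genes. Of the other isozymes 6 were higher and 0 lower, of the sugar nucleotide genes 5 and 2, and of the NADPH partners 5 and 0. Slc16a3, which encodes the lactate exporter MCT4, was at 10.6 ± 3.42 CPM (SD, n = 3) at 24 h and 405 ± 93.2 CPM (SD, n = 2) at 72 h (5.25 ± 0.27, edgeR adjusted p 1.08e-12). Egln3, a prolyl hydroxylase that acts on hypoxia-inducible factors and is itself one of their targets, differed by 3.97 ± 0.17 (6.75e-14). Ppp1r3b, which brings protein phosphatase 1 to glycogen, differed by 3.67 ± 0.32 (4.51e-09). Txnip, an inhibitor of glucose uptake, fell (-1.37 ± 0.42, 0.0109).

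With TGF-beta at 72 h without lactic acid, 4 of 19 other glycogen genes were called higher and 2 lower, against 12.8% and 11.7% of all genes tested. Ppp1r3b rose (1.44 ± 0.28, edgeR adjusted p 0.000456), as did Egln3 (1.16 ± 0.16, 8.17e-06). Pcx, the pyruvate carboxylase, was at 22.8 ± 1.74 CPM (SD, n = 2) without and 113 ± 30.9 CPM (SD, n = 3) with TGF-beta (2.31 ± 0.26, 6.03e-07). At 24 h Prps1, which makes phosphoribosyl pyrophosphate from ribose 5-phosphate, rose with TGF-beta from 169 ± 10.6 to 428 ± 31.6 CPM (1.34 ± 0.30, 0.00336), and none of the 7 pentose phosphate enzymes was called higher there.

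With lactic acid and the replicates not paired, the lists held few calls, of which Slc2a6 was the gene called in more than 1 comparison. This intracellular hexose transporter (GLUT6) fell in Tcon with TGF-beta at 72 h from 31.9 ± 3.08 to 10.2 ± 2.05 CPM (SD, n = 3 each; -1.66 ± 0.16, edgeR adjusted p 1.26e-06). In Treg it fell from 47.2 ± 6.53 to 18.8 ± 1.56 CPM (-1.33 ± 0.15, 2.19e-05). Without TGF-beta it was at 56.0 ± 1.02 and 50.6 ± 3.85 CPM (-0.15 ± 0.16, 0.802), and the interaction of lactic acid and TGF-beta at 72 h was -1.51 ± 0.23 (0.00349). Paired, 6 of the 9 NADPH partners were called lower with lactic acid and 0 higher, both in Tcon with TGF-beta at 72 h and in Treg. Of all genes, 8.68% and 9.79% were called lower there. Of the 16 regulators, 4 were higher and 1 lower in Tcon, and 3 and 1 in Treg, where 6.7% and 9.91% of all genes were called higher.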

How the data were processed

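Polyadenylated RNA was sequenced with a stranded kit as single reads of 65 bases, per the labels' protocols. What the authors deposited are raw counts per gene, in whole numbers and not normalized. The submitters' processing notes name STAR 2.7.3a, HTSeq 0.12.4, DESeq2 1.30.1 and the build GRCm39. Which strand setting and annotation release were used is not given in the sources used here. Of 55414 identifiers, 52081 were matched to a symbol in an annotation of GRCm38, which also gave exon lengths. Of a library's entries, 13.3% to 17.0% were of low alignment quality, 5.72% to 11.2% in no gene and 1.01% to 1.13% ambiguous, and none of these entered a library size or a test. For Aldoa, which has 2 identifiers, the one with nearly all counts was used.

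Counts of all 29 libraries were fitted in edgeR 4.0.16 and tested by quasi-likelihood (R 4.3.3, limma 3.58.1), with a mean per group, no covariate, TMM scaling and the filter filterByExpr (at least 10 counts, 15 in total), leaving 14375 genes with all 34 members among them. P-values were adjusted by Benjamini-Hochberg over those genes within each of 20 comparisons, with a threshold of 0.05. SE is the absolute log2 fold change over the square root of the F statistic. The code was tested on simulated data. Same-numbered libraries deviated together within a time point in every comparison (correlations 0.123 to 0.772, other numbers -0.723 to 0.506). Values from a fit blocked by replicate number and time are therefore given as paired where they change a call. The labels do not state this pairing, and at 72 h replicates 2 and 3 were not set apart in every comparison. For TGF-beta with lactic acid, replicate 3 with and 2 without TGF-beta gave 0.335, against 0.272 and 0.245 for the same-numbered pairs. For Treg against Tcon without lactic acid, such unlike pairs gave 0.274 and 0.31, against 0.488 and 0.586. Among Tcon at 72 h, replicate 3 of TGF-beta medium and replicate 2 of plain medium gave 0.506. The pair of replicate 2 gave 0.423 there, and plain medium had no replicate 3. Replicate 3 of combined medium and replicate 2 of TGF-beta medium gave 0.245, against 0.179 for the pair of replicate 2 and 0.478 for that of replicate 3. Between times the correlations were -0.0624 to 0.146, and no pairing was used. Comparisons that share a group, such as those of TGF-beta and of lactic acid in plain medium, are not independent. Other settings tried were RLE scaling, DESeq2 1.42.0, no filter, the compared groups alone, the female replicates alone and each library left out.

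The members and lists were chosen with earlier results of these data known. Per-library values are given for Slc2a1, Slc2a3, Hk1, Hk2, Pfkfb3, Gapdh, Pkm, G6pdx, Gys1 and Pygl, and per comparison for up to 3 called members with the largest rise and 3 with the largest fall, or else for the 2 with the smallest p. Other members are named by their calls. List genes are named among the up to 3 called genes of a list with the largest change.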

Additional observations from a re-analysis of the deposited data

Results flagged for a closer look

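The response of 5 genes to TGF-beta without lactic acid differed between 72 and 24 h in edgeR's interaction test. It was higher at 72 h by 0.89 on the log2 scale for Slc2a1 (adjusted p 0.00806), 0.79 for Hk2 (0.0373) and 0.88 for Pfkfb3 (0.00126), and lower for Bpgm (-0.82, 0.005) and G6pdx (-0.50, 0.0238). Without the filter on low counts Bpgm (0.0685) and G6pdx (0.244) did not pass, and with the compared groups alone Hk2 did not (0.06).

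With lactic acid in both media, 7 genes differed in the same test. The response was higher at 72 h for Slc2a1 (0.81, edgeR adjusted p 0.00492), Hk1 (0.54, 0.00911), Hk2 (0.72, 0.0237), Pfkp (0.71, 0.00169) and Pfkfb3 (1.17, 1.19e-05), and lower for Bpgm (-0.60, 0.0143) and G6pdx (-0.78, 0.000167). Without the filter Bpgm did not pass (0.204), and with the female replicates alone Hk2 did not (0.0623). The tests with and without lactic acid share no library. They are not independent, because they come from the same fit and same-numbered libraries of the media deviated together within a time. The 24 and 72 h cultures are not linked by the labels.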

How the results depend on the processing

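With the replicate block within each time point, lactic acid gave 2 calls at 24 h without TGF-beta, 3 at 72 h without and 4 with TGF-beta and 5 in Treg. TGF-beta gave 15 at 24 h without and 16 with lactic acid and 20 at 72 h without it, Treg against Tcon with lactic acid gave 8, and the interactions of TGF-beta and time gave 18 without and 21 with lactic acid. DESeq2 gave 2 for lactic acid at 72 h without TGF-beta, 1 in Treg, 2 for Treg against Tcon with lactic acid, and 9 and 12 for those interactions. Without a filter, the counts were 0 for lactic acid with TGF-beta at 72 h, 1 in Treg and 3 for the interaction without lactic acid. With the female replicates alone they were 4 for lactic acid with TGF-beta at 72 h, 6 in Treg, 13, 11 and 17 for TGF-beta at 24 h without, at 24 h with and at 72 h without lactic acid, 3 for Treg against Tcon with lactic acid, and 14 and 13 for the interactions. With the compared groups alone they were 0 for lactic acid with TGF-beta at 72 h, and 12, 13 and 3 for those TGF-beta comparisons. RLE scaling, which moved the median of all genes by at most 0.067, moved no count by over 1.5 times. With the replicate block over all libraries, every call with time was kept and the counts were 27, 26, 26 and 25 in plain, lactic acid, TGF-beta and combined medium, against 27, 23, 25 and 24 without it; between times the numbers do not pair the libraries.

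Leaving out 1 library gave 0 to 0 calls for lactic acid at 24 h in either medium, 0 to 1 for each of the 3 lactic acid comparisons at 72 h, and for TGF-beta 1 to 5 at 24 h without and 2 to 8 with lactic acid, and 5 to 11 at 72 h without and 11 to 16 with it. For TGF-beta at 24 h, the counts were 1, 3 and 4 without replicate 1, 2 or 3 of plain medium and 3 and 2 without replicate 2 or 3 of TGF-beta medium, and with lactic acid 3 and 2 without replicate 1 or 2 of lactic acid medium and 3 and 2 without replicate 2 or 3 of combined medium. At 72 h they were 5 without replicate 2 of plain medium, and with lactic acid 11 without replicate 2 or 3 of lactic acid medium. The 1 call for lactic acid at 72 h came without replicate 2 of plain medium in Tcon without TGF-beta, and in Treg without replicate 2 or 3 of TGF-beta medium or replicate 1 of combined medium. Treg against Tcon gave 0 to 0 without and 0 to 1 with lactic acid, the latter 1 without replicate 1 of Treg. Time gave 22 to 26, 23 to 24, 23 to 25 and 22 to 26 in plain, lactic acid, TGF-beta and combined medium. The interactions of lactic acid gave 0 to 0, and those of TGF-beta and time 4 to 7 and 6 to 9. Among single-gene values in these fits, 820 kept their call and 124 lost it, and no value changed sign in any alternative. At 24 h, depth limits Pygl, with at most 2 counts in a library.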
